A study of Mus musculus with 4 samples.

Results

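The genes described here are 10 endothelial receptor and junction genes, measured in haematopoietic progenitors of the mouse foetal liver. They are Kdr, Flt1, Tek, Tie1, Cdh5, Pecam1, Esam, Emcn, Lyve1 and Stab2. All probe sets that the platform annotation assigns to exactly 1 of these genes were taken, which gave 15 of the 45037 probe sets tested. Of the 10 genes, 7 had 1 probe set, Cdh5 and Lyve1 had 2 each, and Flt1 had 4. The cells came from female embryos at E13.5 of genotype Hes1 GFP/WT, in which 1 Hes1 allele carries GFP. They were sorted from foetal liver as lineage negative, cKit positive and Sca1 positive, the fraction known as LSK cells, which holds the stem cells and multipotent progenitors of blood. Total RNA, 5 ng per sample, was amplified and hybridized to Affymetrix arrays, 1 labelled HES1-GFP positive and 3 labelled HES1-GFP negative. All values below are log2 intensities made from RMA values, and every difference is the array labelled positive minus the arrays labelled negative.

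Vascular endothelial growth factor (VEGF) receptors, Tie receptors, the junction cadherin and the scavenger receptors listed here are best known from blood vessels. KDR and FLT1 bind VEGF, TEK binds the angiopoietins, and the cadherin of Cdh5 holds neighbouring endothelial cells together. Blood stem cells arise in the embryo from haemogenic endothelium, and Tek, Tie1, Esam, Emcn and Pecam1 are also used as surface markers of haematopoietic stem or progenitor cells. Stab2 and Lyve1 encode hyaluronan receptors of the endothelium that lines liver sinusoids, and Lyve1 is also made by some tissue macrophages.

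Hes1 itself went against the labels. Its log2 intensity was 6.57 on the array labelled positive, against 8.78, 9.07 and 6.70 on negative replicates 1, 2 and 3, so each array is named below by its label. Negative replicate 3 also stood apart from the other negative arrays. Its Pearson correlation across all probe sets was 0.974 with the array labelled positive, 0.958 with negative replicate 1 and 0.958 with negative replicate 2, while negative replicates 1 and 2 had 0.964 between them. These correlations are across probe sets, which are not independent replicates. Kit, the gene of the sorted cKit receptor, was at 10.13 on the array labelled positive, against 9.90, 9.72 and 9.68 on negative replicates 1, 2 and 3. Ptprc, the pan-leukocyte antigen CD45, was at 11.26, against 11.77, 11.31 and 11.06, and Ly6a, which encodes Sca1, was not analysed here. Nothing in the labels ties the negative samples to separate embryos or litters, so p-values measure only the spread between these samples, which may be technical. The array labelled positive has no replicate, and whether embryos were pooled is not stated. With 1 array against 3, the smallest p that an exact permutation test allows is 0.25.

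No probe set of the 10 genes differed past the threshold between the labelled groups. limma called 0 of 45037 probe sets higher (0.0%) and 0 lower (0.0%) at a Benjamini-Hochberg adjusted p under 0.05, and the lowest adjusted p among the 15 probe sets was 0.941. Unadjusted, limma put 1 of the 15, Tek, at a p under 0.05 on the higher side, against 3.09% of all probe sets, and 1, Esam, on the lower side, against 1.43%. limma with trend and robust settings also called 0, with 1754 of all probe sets and 1 of the 15 at an unadjusted p under 0.05. What the values show most plainly is a difference within the negative group, since Cdh5, Kdr, Pecam1, Lyve1 and Stab2 were high on negative replicates 1 and 2 and low on negative replicate 3 and on the array labelled positive.

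**Figure D1:**
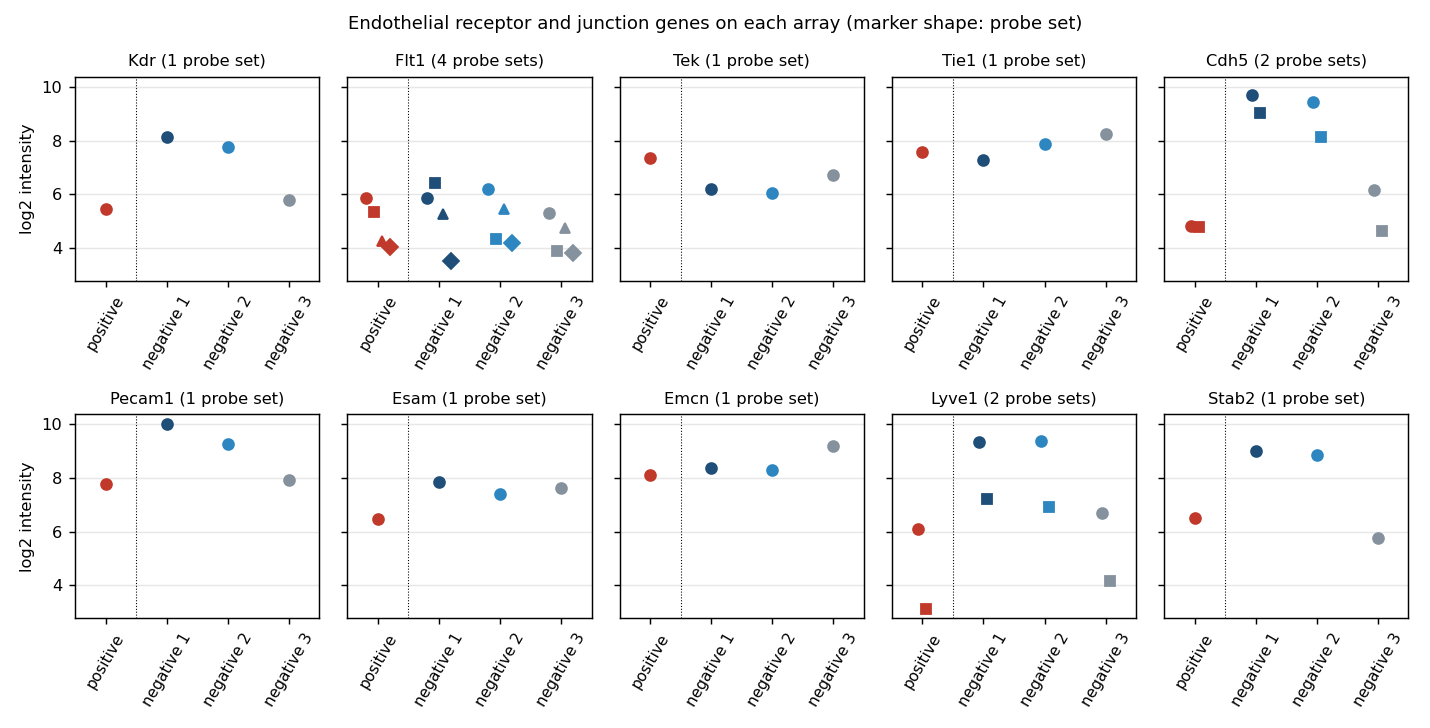
Log2 intensity of each probe set (vertical axis, marker shape) on the array labelled HES1-GFP positive (red, left of the dotted line) and on HES1-GFP negative replicates 1, 2 and 3 (dark blue, light blue and grey), 1 panel per gene. Cdh5, Lyve1, Kdr, Pecam1 and Stab2 are high on negative replicates 1 and 2 only, Tek is highest on the array labelled positive at 7.36, and Tie1 and Emcn are highest on negative replicate 3 at 8.25 and 9.19.

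The VEGF receptors behaved unalike. Kdr, the main signalling receptor for VEGF, had a log2 intensity of 5.44 on the array labelled positive, against 8.15, 7.75 and 5.80 on negative replicates 1, 2 and 3. Both negative replicates 1 and 2 therefore lay more than 2 log2 units above the array labelled positive, and replicate 3 lay 0.36 above it. The difference from the mean of the negative arrays was -1.80 log2 units (standard error 1.07, limma adjusted p 1.00). Flt1 encodes a VEGF receptor that also acts as a decoy. Its brightest probe set, 1454037_a_at, was at 5.88 on the array labelled positive, against 5.85, 6.18 and 5.29, so that the array labelled positive lay between the negative arrays. Probe set 1440926_at was at 5.33, against 6.41, 4.35 and 3.90, and probe set 1419300_at at 4.05, against 3.51, 4.18 and 3.80. In both, the array labelled positive again lay within the range of the negative arrays. Only probe set 1451756_at had the array labelled positive outside that range, at 4.28, against 5.27, 5.44 and 4.77. All 4 Flt1 probe sets had a mean level below the median of all probe sets, 6.23, at percentiles 15.1 to 43.7. Their differences ran from -0.88 to 0.44 log2 units, and the 4 probe sets did not give 1 direction.

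The Tie receptors had other array orders than Kdr, and differed between themselves. Tek, which encodes TIE2, the receptor of the angiopoietins, was at 7.36 on the array labelled positive, against 6.19, 6.04 and 6.72 on negative replicates 1, 2 and 3. It was the only probe set of the 15 in which the array labelled positive was the highest of all 4 arrays. Negative replicate 3 came next, 0.64 log2 units below. The difference was 1.05 log2 units with a standard error of 0.35, a 95% interval of 0.04 to 2.05, an unadjusted p of 0.0443 and a limma adjusted p of 1.00. The unadjusted limma p for Tek was 0.109 without negative replicate 1, 0.0905 without replicate 2, 0.0158 without replicate 3 and 0.0678 with trend and robust settings. Tie1 encodes the partner of TIE2, a receptor without a well established ligand. It was at 7.57 on the array labelled positive, against 7.28, 7.86 and 8.25, a difference of -0.23 with a standard error of 0.45. Its highest array was negative replicate 3, and the array labelled positive lay between negative replicates 1 and 2.

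The 250 bases upstream of the annotated start site are shown for 4 receptor genes, to set beside each other genes whose array patterns differed: Kdr and Stab2, low on the array labelled positive and on negative replicate 3, and Tek and Tie1, which were not. Of the 10 genes, 6 had a sequence in the RefSeq promoter table (GRCm38.p6). Each is written 5′ to 3′ on the strand of its gene. Capitals mark matches on either strand to the ETS cores CAGGAA and CCGGAA, the RBPJ core TGGGAA, and the HES motifs CACNAG (N-box) and CACGCG.
Kdr, chr5:75978456-75978705, minus strand: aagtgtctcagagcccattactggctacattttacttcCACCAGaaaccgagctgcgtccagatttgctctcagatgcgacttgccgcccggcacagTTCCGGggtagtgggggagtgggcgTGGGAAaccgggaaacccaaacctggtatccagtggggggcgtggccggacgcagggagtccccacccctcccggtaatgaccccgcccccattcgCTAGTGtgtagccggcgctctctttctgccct
Stab2, chr10:87007943-87008192, minus strand: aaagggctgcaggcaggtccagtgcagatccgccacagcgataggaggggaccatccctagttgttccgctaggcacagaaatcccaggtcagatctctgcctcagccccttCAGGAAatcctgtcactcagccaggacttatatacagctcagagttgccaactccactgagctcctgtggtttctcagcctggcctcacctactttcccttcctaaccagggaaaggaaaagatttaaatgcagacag
Tek, chr4:94739039-94739288, plus strand: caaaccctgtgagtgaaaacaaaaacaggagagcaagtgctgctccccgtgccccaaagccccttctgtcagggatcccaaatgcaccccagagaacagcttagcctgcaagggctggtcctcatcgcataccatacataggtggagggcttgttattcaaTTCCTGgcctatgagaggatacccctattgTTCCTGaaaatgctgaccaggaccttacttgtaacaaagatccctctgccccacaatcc
Tie1, chr4:118489850-118490099, minus strand: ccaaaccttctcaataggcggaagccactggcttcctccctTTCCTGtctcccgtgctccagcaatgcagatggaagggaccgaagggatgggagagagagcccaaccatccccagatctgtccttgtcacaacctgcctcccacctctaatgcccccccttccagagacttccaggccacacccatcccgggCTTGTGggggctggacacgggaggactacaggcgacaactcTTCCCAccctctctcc
An ETS core as CAGGAA or CCGGAA, the only forms searched, stood in 5 of the 6 promoters of these genes, those of Kdr, Tek, Tie1, Emcn and Stab2. Such a core stood in 35.1% of the 32851 promoters of the table. In Tek it lay 89 and 59 bases upstream of the start site, in Stab2 138, in Tie1 209 and in Kdr 153 bases upstream, counted to the base where the match begins. The RBPJ core, the letters bound by the Notch effector, was in Kdr and Tie1 and in 21.6% of all promoters. The N-box was in Kdr, Tie1 and Emcn and in 36.7% of all promoters, CACGCG was in Flt1 and in 7.62%, and the E-box CACGTG was in none of the 6 and in 6.02%. The GATA cores AGATAA (9.99% of all promoters) and TGATAA (7.94%) were in none of the 6. The E-box reads the same on both strands, and no match overlapped another. A match describes letters and is not evidence of binding. The ETS core found was CCGGAA in Kdr and CAGGAA in Stab2, Tek and Tie1. Whether these cores bear on the array patterns was not tested.

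Among the junction and adhesion genes, Cdh5 varied most. Cdh5 encodes VE-cadherin, the adhesion molecule of endothelial junctions. Its brighter probe set, 1433956_at, was at 4.83 on the array labelled positive, against 9.71, 9.45 and 6.16 on negative replicates 1, 2 and 3. The second, 1422047_at, was at 4.77, against 9.04, 8.13 and 4.65. The pair gave the same picture, with negative replicates 1 and 2 far above both other arrays, but they ranked the low arrays differently: negative replicate 3 was 1.33 log2 units above the array labelled positive in the first and 0.12 below it in the second. The range over the 4 arrays was 4.88 and 4.39 log2 units, at percentiles 99.9 and 99.8 of all probe sets. Because the negative arrays themselves differed by that much, with SDs of 1.98 and 2.32 (n = 3), the differences of -3.61 and -2.50 log2 units had standard errors of 1.67 and 1.95 and limma adjusted p-values of 1.00 each.

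Pecam1 encodes CD31, an adhesion molecule of endothelium, platelets and leukocytes. It was at 7.76 on the array labelled positive, against 10.03, 9.27 and 7.93 on negative replicates 1, 2 and 3. The array labelled positive lay 0.17 log2 units below negative replicate 3 and 2.26 below negative replicate 1, the same array order as for Kdr and for the brighter Cdh5 probe set. The difference was -1.31 with a standard error of 0.91.

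Esam and Emcn did not share that order. Esam encodes an endothelial junction molecule that also marks haematopoietic stem cells. It was at 6.46 on the array labelled positive, against 7.86, 7.39 and 7.63, with an SD of 0.23 among the negative arrays (n = 3), the smallest of the 15 probe sets. All 3 negative arrays lay above the array labelled positive, by 0.93 to 1.40 log2 units. Its difference was -1.17 with a standard error of 0.27, a 95% interval of -1.94 to -0.40, an unadjusted p of 0.0142 and a limma adjusted p of 0.941. Emcn encodes endomucin, a sialomucin of veins and capillaries. It was at 8.10 on the array labelled positive, against 8.37, 8.31 and 9.19, so that negative replicate 3 was the high array and the array labelled positive lay 0.21 log2 units below the lowest negative array. The difference was -0.52 with a standard error of 0.45, or -0.24 without negative replicate 3.

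The hyaluronan receptors repeated the pattern of Cdh5. Lyve1 encodes a receptor of lymphatic and sinusoidal endothelium. Its brighter probe set, 1453128_at, was at 6.11 on the array labelled positive, against 9.33, 9.39 and 6.71 on negative replicates 1, 2 and 3. The second, 1429379_at, was at 3.13, against 7.23, 6.91 and 4.15. Both placed the arrays alike, with negative replicate 3 next above the array labelled positive, by 0.60 and 1.02 log2 units. The differences were -2.36 and -2.97 with standard errors of 1.29 and 1.43. Stab2 encodes stabilin-2, which clears hyaluronan from the circulation. It was at 6.51 on the array labelled positive, against 9.02, 8.88 and 5.76. Here negative replicate 3 was the lowest array, 0.76 log2 units below the array labelled positive, and the difference was -1.37 with a standard error of 1.55.

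**Figure D2:**
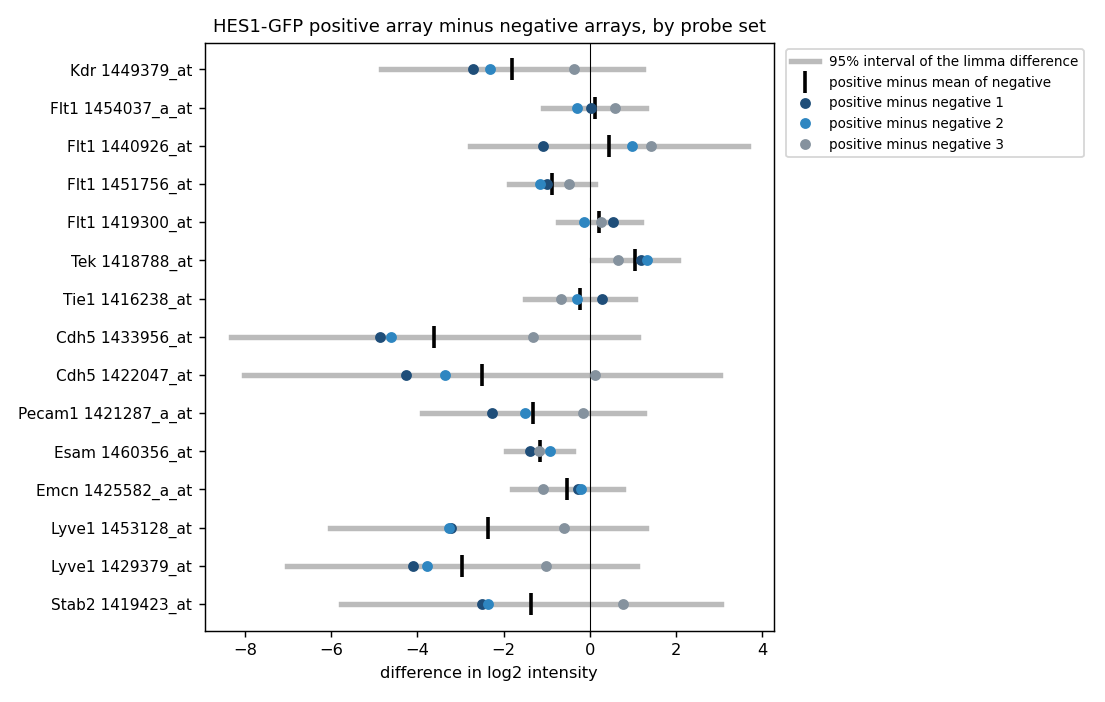
Difference in log2 intensity between the array labelled HES1-GFP positive and each HES1-GFP negative array (points), with the difference from their mean (black tick) and its 95% interval from limma (grey bar), for the 15 probe sets. The grey points, against negative replicate 3, lie between -1.33 and 1.43, while the points against replicates 1 and 2 reach -4.88 and -4.61, and the bars of Tek and Esam alone leave out 0.

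Set side by side, 8 of the 15 probe sets had the array labelled positive below all negative arrays, against 23.6% of all probe sets, and 1, Tek, had it above them, against 23.2%. At least 1 log2 unit outside that range were 2 of the 15 on the low side, Cdh5 1433956_at and Lyve1 1429379_at, against 0.631% of all probe sets, and 0 on the high side, against 1.35%. Their distances of -1.33 and -1.02 rest on dim values of the array labelled positive, 4.83 and 3.13, where its median was 6.23. A pseudocount shrinks such distances, and this count was not repeated with it. No filter on level was applied, and 10 of the 15 had a mean above the median probe set. The median difference was -1.17 log2 units over the 15 probe sets and -0.01 over all probe sets. Taken against negative replicates 1, 2 and 3 singly, the median over the 15 was -1.40, -1.17 and -0.36. Without negative replicate 1 the array labelled positive lay below the remaining negative arrays in 9 of the 15 (34.5% of all probe sets) and above them in 2 (30.0%). Without replicate 2 these counts were 8 (31.0%) and 3 (31.3%), and without replicate 3 they were 10 (32.5%) and 1 (34.4%).

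The spread within the negative group was itself wide for these genes. Over the 4 arrays, 8 of the 15 probe sets had a range of at least 2 log2 units, against 7.5% of all probe sets. In 7 of the 15, namely Kdr, Pecam1, Stab2 and both probe sets of Cdh5 and of Lyve1, negative replicate 3 lay at least 1 log2 unit below both other negative replicates, against 2.82% of all probe sets. Negative replicate 3 was the negative array nearest to the array labelled positive in 9 of the 15, against 39.7% of all probe sets. Without negative replicate 3, limma gave 9 of the 15 as lower at an unadjusted p under 0.05, against 3.29% of all probe sets, and 1 as higher, Tek, against 3.99%, with 0 past the adjusted threshold and a lowest adjusted p of 0.551. The corresponding counts were 1 lower, Esam, and 1 higher, Flt1 1440926_at, without negative replicate 1 (1.47% and 2.72% of all probe sets), and 1 lower, Esam, and 0 higher without replicate 2 (1.55% and 2.61%). The fit without replicate 3 had 1 residual degree of freedom, and its negative arrays were the pair in which Hes1 was highest. Replicate 3 was set apart in these same values. The count without it therefore largely restates that split and is no separate test of the labelled groups. The sizes of the differences depended on which negative array was left out. Without replicates 1, 2 and 3 in turn, the difference was -2.97, -3.10 and -4.75 log2 units for Cdh5 1433956_at and -1.62, -2.08 and -3.82 for Cdh5 1422047_at. It was -1.94, -1.91 and -3.25 for Lyve1 1453128_at, and -1.34, -1.54 and -2.52 for Kdr. Pecam1 gave -0.84, -1.21 and -1.88, and Stab2 gave -0.80, -0.87 and -2.43. These genes thus lay furthest from the negative arrays without replicate 3. So did Tek, which lay above the negative arrays in each of these fits, at 0.99, 0.91 and 1.25. In all of them replicate 3 was the negative array nearest to the array labelled positive, so leaving it out widens the difference by construction.

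Other genes of the same pathways were taken from lists, with the brightest probe set of each gene, and 0 of the 73 genes measured passed limma's test in either direction. Over all 18193 genes the array labelled positive lay above the negative range in 23.6% and below it in 23.0%. Of 12 VEGF and angiopoietin ligands and co-receptors, 1 lay above and 6 below, with a median difference of -0.36 log2 units. Angpt1, the ligand that activates TIE2, was at 9.95 on the array labelled positive, against 7.29, 8.21 and 9.13 on negative replicates 1, 2 and 3, the same order of high and low arrays as for Tek except between replicates 1 and 2. Angpt2, the ligand that can oppose it, was at 6.48, against 7.78, 6.78 and 7.51. Nrp1, a VEGF co-receptor, was at 7.08, against 7.79, 8.22 and 7.70, below all negative arrays. Flt4, the VEGF receptor of lymphatic and sinusoidal endothelium, was also picked after its values were seen. It was at 5.77, against 8.10, 9.07 and 5.89, low on the same arrays as Kdr. Of 14 endothelial transcription factors, 2 lay above and 2 below, with a median of 0.02. Sox17 was at 5.27, against 5.73, 5.68 and 5.55, Etv2, which starts the endothelial programme in the early embryo, at 5.19, against 4.88, 5.03 and 4.91, and Tal1, a regulator of blood and endothelium, at 10.16, against 9.43, 9.26 and 10.18. Ets1 and Foxo1, singled out after their values were seen, were high where Cdh5 was high. Ets1 was at 8.60, against 10.70, 10.55 and 8.29, and Foxo1, a mediator of growth factor signals, at 9.57, against 10.85, 11.10 and 9.37, with negative replicate 3 the lowest array in both.

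Junction partners were balanced, with 2 of 12 above, 3 below and a median of -0.02. Jup, the junction protein plakoglobin, was at 9.74 on the array labelled positive, against 9.55, 8.76 and 8.56 on negative replicates 1, 2 and 3. Ctnna1, the alpha-catenin that ties cadherins to actin, was at 10.82, against 11.48, 11.08 and 11.10, and Jam2, a junctional adhesion molecule, at 4.80, against 6.87, 4.39 and 6.09. Of 16 other endothelial surface and matrix genes, 3 lay above and 9 below, with a median of -0.28. Clec14a, an endothelial lectin, was at 4.06, against 6.57, 6.08 and 5.55, with the lowest adjusted p of the 6 lists, 0.941. Vwf, the von Willebrand factor of endothelium and platelets, was at 5.21, against 7.98, 7.05 and 6.14, while Ramp2, a co-receptor for adrenomedullin, was at 9.03, against 8.49, 7.92 and 7.68.

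Liver sinusoidal endothelial genes had the widest shift of the 6 lists. The macrophage marker list described below shifted further, with a median difference of -1.87 log2 units. Of the 10 sinusoidal genes, 0 lay above and 5 below the negative range, with a median difference of -1.70 log2 units. Against negative replicates 1, 2 and 3 taken singly, the median was -2.56, -2.33 and -0.24, and replicate 3 was the nearest negative array in 8 of 10. Mrc1, the mannose receptor of sinusoids and macrophages, was at 6.49 on the array labelled positive, against 9.22, 9.08 and 6.94 on negative replicates 1, 2 and 3. Dnase1l3, a secreted nuclease, was at 4.70, against 7.73, 7.98 and 5.01, the same array order as for Kdr apart from negative replicates 1 and 2, while Cd36, a fatty acid transporter, was at 8.63, against 9.62, 9.03 and 9.03. Fcgr2b, singled out after its values were seen, went the other way from the rest of the list. It was at 8.69, against 8.00, 6.85 and 9.37, a difference of 0.62. Rspo3 and Wnt2, both dim, differed by only -0.48 and -0.27. Stem cell genes lacked the gap of the sinusoidal list, with 2 of 9 above, 0 below and a median of 0.38. Meis1 was at 9.32, against 8.90, 8.68 and 9.13, Hlf at 10.57, against 10.14, 9.66 and 10.52, and Ctnnal1 at 7.77, against 7.16, 8.00 and 7.00.

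**Figure D3:**
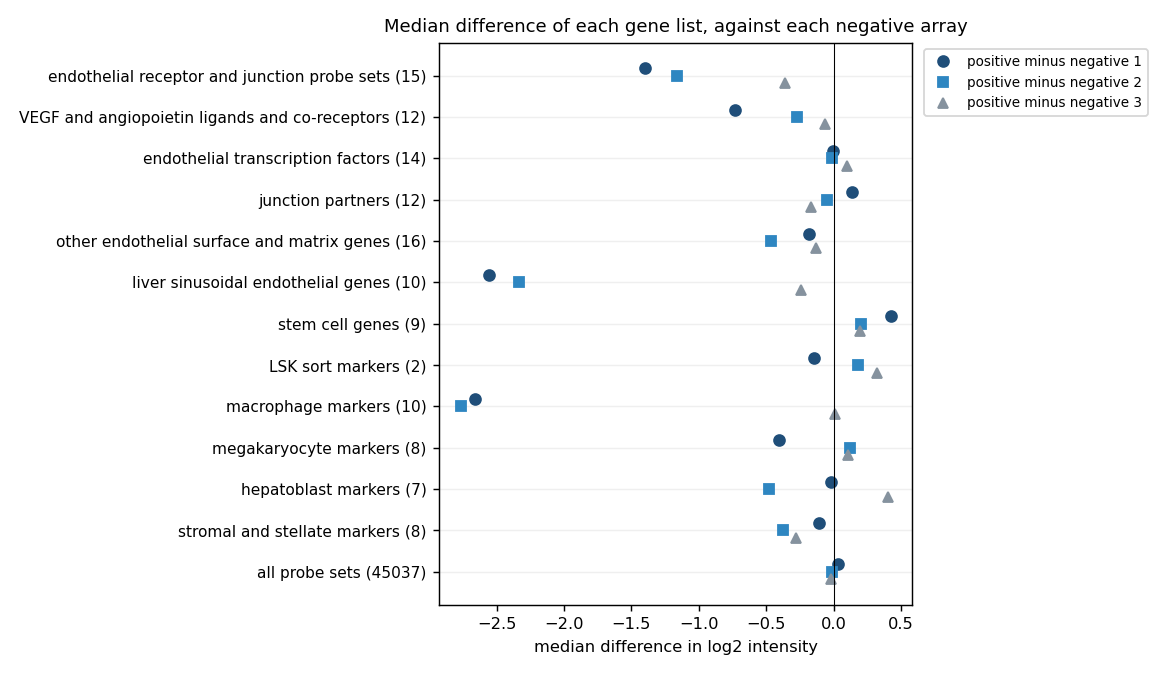
Median difference in log2 intensity of each gene list between the array labelled HES1-GFP positive and negative replicates 1 (circles), 2 (squares) and 3 (triangles), with the number of genes or probe sets in parentheses. The sinusoidal list (-2.56, -2.33 and -0.24) and the macrophage list (-2.66, -2.77 and 0.01) lie far to the left against replicates 1 and 2 only, and all probe sets together lie near 0.

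Markers of other cell types were read beside these genes. Macrophage markers other than Cd163 were high on the same arrays as Cdh5, Lyve1 and Stab2. In the whole list 0 of 10 lay above and 5 below the negative range, with 0 past the test. Their 10 brightest probe sets summed to a linear intensity of 4143 on the array labelled positive, against 25447, 23937 and 3715 on negative replicates 1, 2 and 3, and replicate 3 was the nearest negative array in 9 of 10. Cd163 was at 3.78 on the array labelled positive, against 6.60, 7.26 and 6.20, so replicate 3 lay only 0.40 below replicate 1. Vcam1 was at 7.31, against 11.36, 10.98 and 8.81, and C1qc at 8.18, against 11.94, 11.99 and 8.80. In such sorted samples, fewer cells of a type and less RNA per cell cannot be told apart. The sinusoidal list summed to 1104 on the array labelled positive, against 3323, 2649 and 1480. Fcgr2b and Cd36 made up much of that sum on the array labelled positive and on negative replicate 3. Megakaryocyte markers, a second source of Pecam1 and Vwf, summed to 2283, against 2659, 2786 and 2066 over 8 genes, with a median difference of -0.02. Itgb3 was at 7.83, against 8.83, 8.65 and 8.98, Gp9 at 8.64, against 8.20, 8.23 and 8.33, and Gp6 at 3.71, against 4.11, 4.11 and 3.86. Hepatoblast markers summed to 1793, against 2009, 1488 and 2084 over 7 genes, with Ahsg at a difference of -0.34, Afp at 0.40 and Apoa1 at -0.26. Within that list Alb and Dlk1, singled out after their values were seen, ran opposite ways. Alb, albumin, was at 7.62 on the array labelled positive, against 8.98, 8.29 and 7.22, the array order of Cdh5 1422047_at. Dlk1 was at 9.23, against 7.76, 6.78 and 10.13, and its part of the sum was larger on the arrays where Alb was low. Stromal and stellate markers summed to 818, against 948, 1105 and 956 over 8 genes, with Acta2 at -0.55, Col1a1 at -0.41 and Col1a2 at -0.39. The part of macrophage, hepatoblast or other non-LSK RNA in the values of Lyve1, Stab2, Pecam1, Cdh5 and Kdr was not tested. No marker was at 0 on any array, since RMA gives a positive value to every probe set.

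The genes nearest to Cdh5 and to Tek in pattern were found by the root mean square distance between mean-centred log2 values over the 4 arrays, among 18193 genes. The other genes described here, unnamed clones and predicted genes were passed over. For Cdh5 the nearest of the remaining genes were Ebf1 at 0.26, Neo1 at 0.30 and Cd79a at 0.31 log2 units. Ebf1, which drives B lineage commitment, was at 5.90 on the array labelled positive, against 10.13, 9.97 and 6.61 on negative replicates 1, 2 and 3. Cd79a, which encodes Ig-alpha of the B cell receptor complex, was at 7.44, against 11.72, 12.19 and 8.28. Neo1, a receptor for netrins and repulsive guidance molecules, was at 3.29, against 8.38, 7.46 and 4.10. The other 9 genes described here were ranked in likeness to Cdh5 among all genes, with no gene passed over. Of them Lyve1 ranked 30th (0.63), Kdr 85th (0.94), Stab2 95th (0.97) and Pecam1 183rd (1.23). Esam (1.75) ranked 1000th and Flt1 (1.96) 2850th. Emcn (2.20) ranked 12571st, Tie1 (2.24) 13936th and Tek (2.60) 17522nd. For Tek the nearest were Rfxap at 0.03, Hnf4a at 0.04 and Ypel4 at 0.05 log2 units. Rfxap, a regulator of MHC class II genes, was at 9.52, against 8.30, 8.22 and 8.90. Each distance rests on 4 values per gene and describes these arrays only.

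**Figure D4:**
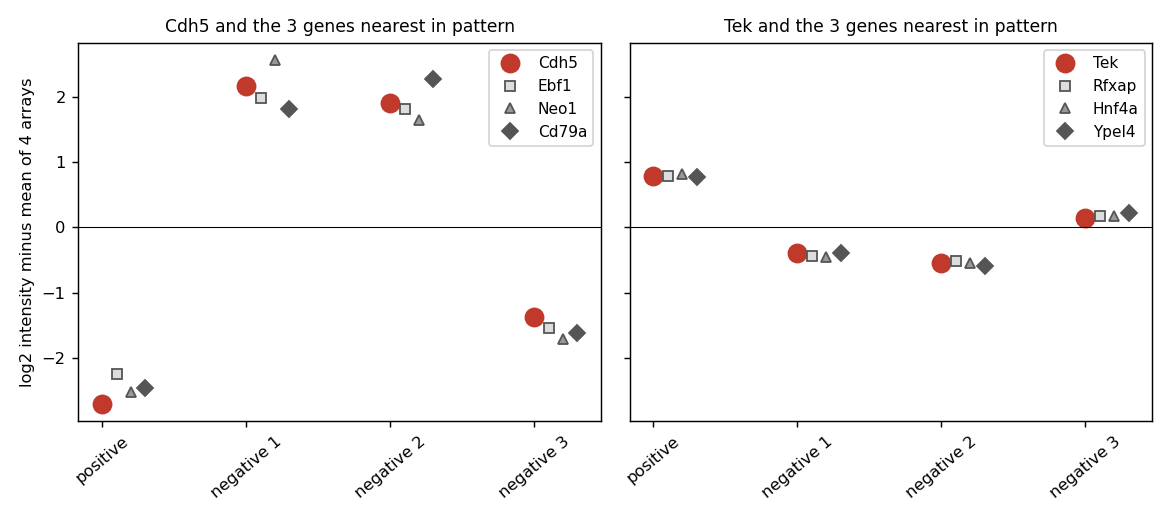
Log2 intensity minus the mean of the 4 arrays (vertical axis) for Cdh5 (left) and Tek (right), in red, and for the 3 genes nearest to each in pattern, in grey, on the array labelled HES1-GFP positive and on HES1-GFP negative replicates 1, 2 and 3. Ebf1, Neo1 and Cd79a share the high values of Cdh5 on negative replicates 1 and 2, and the values for Tek and its neighbours stay within about 1 log2 unit of their mean.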

How the data were processed

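RNA of 4 sorted samples was hybridized to Affymetrix arrays. The authors deposited linear intensities per probe set, made with RMA per the submitters' processing notes. RMA corrects background, equalizes the arrays' distributions and summarizes probes. The RMA software was not given in the sources used here. Median intensities were 75.0 for the array labelled positive and 74.7 to 76.1 for the negative arrays, which hides any difference in total RNA content. No detection calls were at hand, and the number of arrays limits precision.

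Intensities were turned into log2 values without a pseudocount. Of 45101 probe sets, 64 controls were set aside. The annotation gives 1 symbol to 34945 of the rest (34741 matched RefSeq by gene ID), several to 932 and none to 9160. Probe sets of a gene are not replicates. limma 3.58.1 (R 4.3.3; lmFit, eBayes without trend, two-sided, Benjamini-Hochberg over 45037 probe sets, threshold 0.05) compared 1 positive with 3 negative arrays. It had 2 residual and 1.80 prior degrees of freedom, and assumes that the single positive array varies like the others. Promoter sequences are RefSeq's (GRCm38.p6). The arrays name no build.

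Named were all 15 probe sets, Hes1, the sort markers, in each list the 3 genes of largest absolute moderated t, and the 3 genes nearest to Cdh5 and Tek. Flt4, Ets1, Foxo1, Fcgr2b, Rspo3, Wnt2, Alb and Dlk1 were added outside this rule, with their values known. Members and lists were chosen with earlier results of these data known. Ly6a was not analysed here.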

Additional observations from a re-analysis of the deposited data

How the results depend on the processing

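No alternative brought any of the 15 probe sets past the adjusted threshold. The alternatives were cyclic loess normalization, a pseudocount of 16, probe sets above the median level only (10 of the 15), trend and robust settings, the brightest or the mean probe set per gene, and leaving out each negative replicate. The median difference stayed between -0.83 and -1.34 log2 units. Of 120 refitted differences of single probe sets, 116 kept their direction. Many of these could not reverse. Trend and robust settings, the level filter and the brightest probe set leave a difference unchanged by construction. So does the mean for a gene with 1 probe set. The 4 that reversed were Flt1 1454037_a_at with the mean of the probe sets of its gene (-0.029) and without HES1-GFP negative replicate 3, and, also without replicate 3, Flt1 1440926_at and Tie1, none of them past the test. Leaving out 1 negative replicate at a time gave -0.13 to 0.31 for the first, -0.049 to 1.20 for the second and -0.48 to 0.00038 for Tie1. With the pseudocount, Lyve1 1429379_at moved to -1.88, Flt1 1451756_at to -0.55, Flt1 1440926_at to 0.21 and Flt1 1419300_at to 0.10, and leaving out a replicate gave 0.06 to 0.39 for the last. The count of probe sets with the array labelled positive above the negative range was 1 to 3 when leaving out a replicate. A range over 2 arrays is narrower by construction. Brightness limits Flt1, all of whose probe sets were dim, and Lyve1 1429379_at, whose mean level of 5.35 was at percentile 37.0. No paired analysis was possible because the groups share only replicate number 1.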
